A study of Taeniopygia guttata with 169 samples.

Results

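Male and female zebra finch nestlings of day 6 were compared by RNA sequencing of whole bone marrow, the tissue in which blood cells form. All libraries labelled day 6 with a recorded sex and a column in the deposited table were taken, which gave 32 libraries out of those of 87 males and 74 females analysed in all. They came from 16 males, 6 fed methylmercury (MeHg, an organic form of mercury) and 10 on the control diet, and from 16 females, 9 fed MeHg and 7 on the control diet. MeHg was given in food at 1.2 ppm. The labels name no strain, allele or other agent, and the remaining libraries came from 71 males and 58 females of days 18, 35 and 90. Of 35 libraries labelled day 6, 2 of unknown sex and 1 MeHg male were not analysed here. Every sex and treatment group held nestlings of both labelled cohorts, with 10 males and 7 females in cohort 1 and 6 males and 9 females in cohort 2. Whether every library stands for another bird is not stated in the labels, and p-values therefore cover only how far these libraries spread.

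The sex chromosomes of birds are Z and W, with a pair of Z in males and a Z and a W in females. Birds lack the chromosome-wide silencing by which mammals even out the dose of their X chromosome, and many Z-linked genes are known to be expressed more highly in male birds. The W chromosome holds few genes, and those that remain are expressed in females. Neither the deposited table nor the reference table used here pairs its Ensembl gene identifiers with symbols or chromosomes. Genes are therefore given by identifier, none was placed on a chromosome, and the labelled tissue could not be checked against its marker genes. In whole marrow, fewer cells of a type and less RNA per cell cannot be told apart.

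Libraries held 4572638 to 9920851 assigned reads in males, with a median of 7096218, and 4921134 to 11526485 in females, with a median of 6978830. The RNA integrity number (RIN, a measure of RNA quality) averaged 7.56 ± 0.60 in males (SD, n = 14) and 7.72 ± 0.63 in females (SD, n = 13). Reads, RIN, the share of the 3 most abundant genes, the number of genes with reads and the first 3 principal components were compared between the sexes in 7 two-sided permutation tests with 100000 resamples. The lowest adjusted p was 0.644. The first principal component held 16.8% of the variance, and males (-32.4 to 56.4) and females (-58.2 to 59.8) overlapped along it. A control female, replicate 5, stood apart with the lowest RIN (6.2) and the highest score on the second component (79.8). It lay on a library plate whose analysed day 6 libraries were of a single sex. There were 5 day 6 libraries on such plates, 2 males and 3 females. In the fit of day 6 libraries alone with plate as a term they added nothing to the difference between the sexes. The other 27 libraries lay on 6 plates with both sexes.

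Sex differences at day 6 ran mainly in one direction. Of 13343 genes tested, 324 were higher in males (2.43%) and 17 were higher in females (0.127%) at a Benjamini-Hochberg adjusted p under 0.05 by limma, with treatment, cohort and plate as covariates. The count higher in males was 230 to 422 over the alternatives run. The count higher in females was 6 to 58, and it was 11 without control female replicate 3 or without MeHg male replicate 3. At an unadjusted p under 0.05 there were 559 genes higher in males and 279 higher in females, a threshold at which chance also gives genes in each direction. Values are normalised read counts, and differences are male minus female of log2(value + 1), a scale on which genes with low counts show smaller changes than their ratios. The median difference over all genes tested was -0.02, with quartiles at -0.13 and 0.09.

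The 324 genes higher in males differed by similar amounts. Their log2 differences had a median of 0.94 and quartiles of 0.75 and 1.04, and the extremes were 0.29 and 1.90. A total of 244 genes (75.3%) lay between 0.7 and 1.3, around the log2 difference of 1 that corresponds to a doubling. Another 48 lay between 0.5 and 0.7, 21 lay under 0.5 and 11 lay above 1.3. The median standard error of these genes was 0.12, and the 95% interval of 241 of them included 1. The shoulder was visible without regard to calls, since 3.19% of all genes tested had a difference between 0.7 and 1.3 and 1.03% had one between -1.3 and -0.7. A call selects for large differences at a given error, so the sizes of called genes describe these libraries only.

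**Figure D1:**
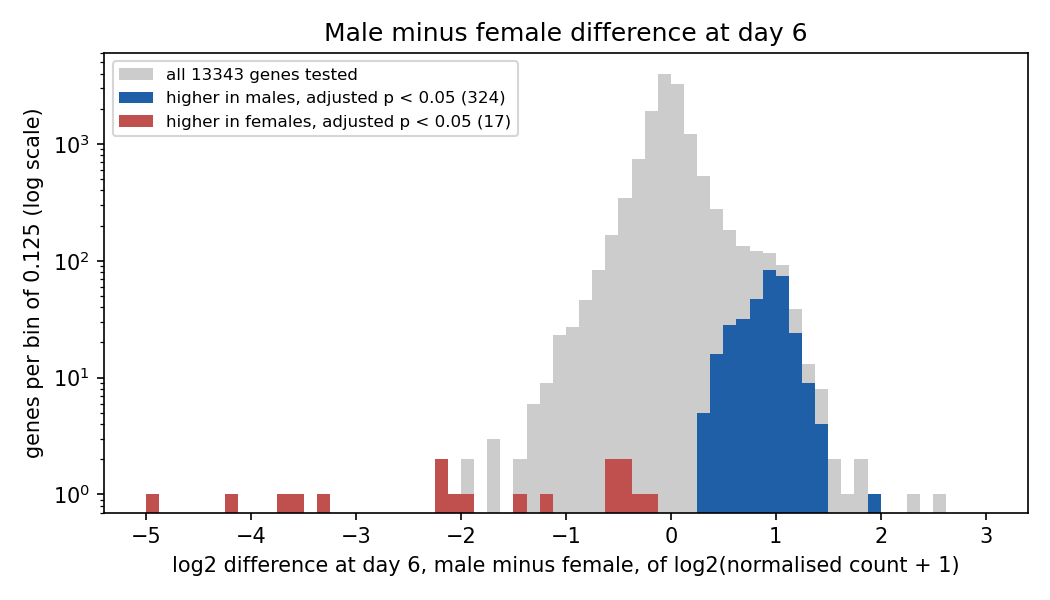
Number of genes (log scale) in bins of the male minus female log2 difference at day 6, for all 13343 genes tested, the 324 called higher in males and the 17 called higher in females. The genes higher in males form a shoulder near 1, with a median of 0.94, while the genes higher in females reach -4.97.

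For many of these genes the sexes did not overlap at all. In 100 genes (0.749% of those tested) every male had a higher normalised count than every female, and all 100 were among those called. Their median difference was 0.99, within a range from 0.63 to 1.20. In 224 called genes the sexes overlapped, and in 179 of these at least 8 males lay above all females. The count of 179 covers genes called in the same libraries, so it follows in part from the call. No share over all genes tested is given for it. None of the 21 genes with a difference under 0.5 and none of the 11 above 1.3 separated the sexes completely. Of those 11, 6 had a mean under 50 normalised counts in males.

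The gene higher in males with the smallest p was ENSTGUG00000026129. It had 730 to 1055 normalised counts in males, with a median of 879, and 365 to 566 in females, with a median of 465. All 16 males lay above all 16 females. The means were 893 ± 97.3 in males and 463 ± 59.6 in females (SD, n = 16 each). The log2 difference was 0.95 ± 0.06 (SE; limma adjusted p = 1.22e-09). It was 1.00 ± 0.11 among MeHg nestlings alone and 0.89 ± 0.10 among control nestlings alone (SE). Within the 6 plates with both sexes it ranged from 0.86 to 0.98.

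Among called genes with a mean of at least 50 normalised counts in the higher sex, the largest difference in favour of males was that of ENSTGUG00000001888. It had 64.4 to 520 normalised counts in males, with a median of 151.4, and 31.8 to 206 in females, with a median of 68.1. The sexes overlapped, with 5 of 16 males above all females. The means were 194 ± 123.8 in males and 91.2 ± 61.2 in females (SD, n = 16 each), and the log2 difference was 1.48 ± 0.40 (SE; limma adjusted p = 0.0423). MeHg males had a median of 179 and control males one of 117.3, against 89.3 in MeHg females and 44.6 in control females. Within plates the difference ranged from 0.01 to 2.61. Among control nestlings alone the difference was 0.70 (limma adjusted p = 1.00) and among MeHg nestlings alone 1.58 (limma adjusted p = 0.0573). It was 0.64 in cohort 1 (limma adjusted p = 1.00) and 1.64 in cohort 2 (limma adjusted p = 0.0153). In libraries with a RIN the limma adjusted p was 0.432, and 0.394 with RIN added. The call was also lost with edgeR (adjusted p = 0.133) and when any of 18 libraries was left out, with adjusted p-values from 0.00528 to 0.139 over the 32 libraries left out in turn. Those 18 were MeHg male replicates 1, 3, 4, 5 and 7, control male replicates 3, 4 and 8, MeHg female replicates 1, 2, 6, 8 and 9, and control female replicates 3, 4, 5, 6 and 7.

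The 17 genes higher in females divided into 11 with large differences at low counts and 6 with small differences at higher counts. The 11 had log2 differences below -1, down to -4.97, with standard errors from 0.29 to 0.54. Their means lay between 0.32 and 13.4 normalised counts in males and between 10.8 and 71.6 in females. In 9 of them at least 1 male had no read, whereas each had reads in all females. Also 9 of the 11 passed the filter (6 or more libraries with a value of 10 or more) through females alone, so a difference was built into their selection. In 3 genes (0.0225% of those tested) every female lay above every male, and all 3 were called. No male reached a value of 10 in any of these 3, so they were among those 9. Their separation was thus in part built into the selection. The other 6 had log2 differences between -0.62 and -0.24. Their means lay between 275 and 816 normalised counts in males and between 410 and 1024 in females.

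ENSTGUG00000024281, one of the 9 genes that passed the filter through females alone, had both the largest difference in favour of females and the smallest p of all genes tested. It had 0 to 9.24 normalised counts in males, with a median of 0.98, and 42.4 to 103.4 in females, with a median of 54.2. The 16 males together held 28 reads, and 7 of them held none. The 16 females together held 947 reads. The means were 1.61 ± 2.73 in males and 59.3 ± 16.2 in females (SD, n = 16 each), and the log2 difference was -4.97 ± 0.30 (SE; limma adjusted p = 3.76e-10). The lowest female thus lay above the highest male, in MeHg and control nestlings alike.

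The other gene named among those higher in females was ENSTGUG00000026388, with the next smallest p at a mean of at least 50. It too passed the filter through females alone. It had 0 to 13.1 normalised counts in males, with a median of 3.51, and 9.85 to 150.8 in females, with a median of 71.1. In all, 14 of 16 females lay above all males. The 2 that did not were MeHg female replicates 4 (11.6) and 9 (9.85), both of cohort 1. MeHg females averaged 71.6 ± 48.1 (SD, n = 9) and control females 71.5 ± 20.7 (SD, n = 7). The log2 difference was -3.65 ± 0.52 (SE; limma adjusted p = 2.77e-05). It was -3.11 ± 0.44 in cohort 1 and -4.74 ± 0.49 in cohort 2 (SE). The test of sex by cohort gave an unadjusted limma p of 0.0169 and an adjusted p of 1.00 for this gene.

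**Figure D2:**
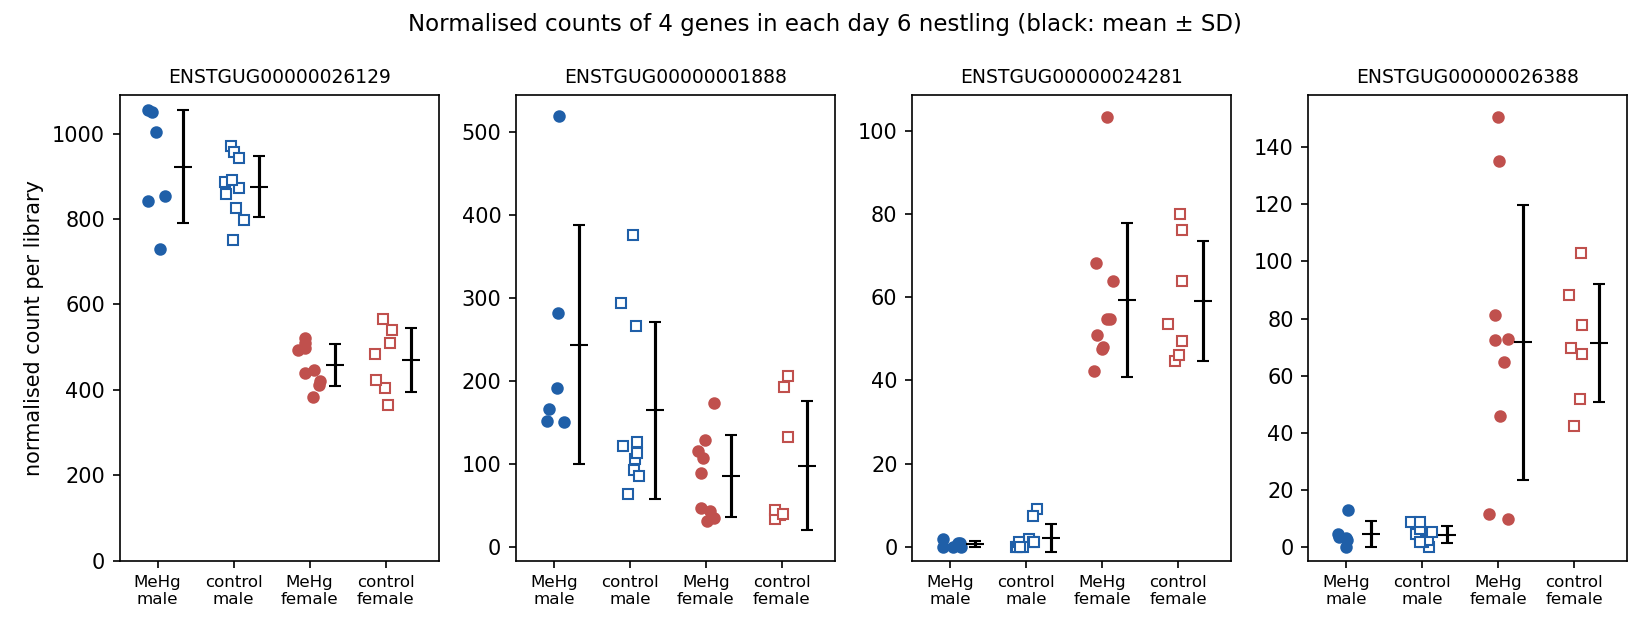
Normalised counts of the 4 genes in each day 6 nestling, one panel per gene with its own scale; filled circles are MeHg and open squares control nestlings, blue is male and red female, and black bars are the mean ± SD. Males and females are apart in the panels of ENSTGUG00000026129 and ENSTGUG00000024281, 5 of 16 males exceed all females for ENSTGUG00000001888, and 2 MeHg females lie among the males for ENSTGUG00000026388.

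Male-higher calls were more frequent among genes with more reads. With all genes divided into equal groups by their mean log2 value, 1.01% of the lowest group were higher in males, 2.99% of the middle group and 3.28% of the highest. Of the 17 genes higher in females, 11 lay in the lowest group, 1 in the middle group and 5 in the highest. The median standard error over all genes was 0.31, 0.16 and 0.11 in these groups. These groups order genes by counts that were not divided by gene length.

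Days 18, 35 and 90 gave a separate set of libraries in which sex genes could be chosen and then read at day 6. In those libraries, with treatment by age, cohort and plate in the fit, 590 of the 13343 genes were higher in males (4.42%) and 400 were higher in females (3%). Of the 590, 564 (95.6%) were also higher in males at day 6, while 44.9% of all genes tested had a positive difference. Of the same 590, 323 (54.7%) were called at day 6, against 2.43% of all genes tested. Of the 400, 319 (79.8%) were also lower in males at day 6, while 55.1% of all genes tested had a negative difference. Of those 400, 17 (4.25%) were called at day 6, against 0.127% of all genes. Among these 17, 9 passed the day 6 filter through females alone. A day 6 difference was thus built into their selection, and the 2 shares are not a like comparison. No gene was called in opposite directions at day 6 and later. Read the other way, 323 of the 324 genes higher in day 6 males (99.7%) and all 17 genes higher in day 6 females were called in the same direction at the later ages. With the later libraries limited to days 18 and 35, these counts were 323 and 15. The later list of genes higher in males then held 536 genes. The later list of genes higher in females was much shorter without day 90. The 15 were 10.9% of that list, whereas the 17 were 4.25% of the 400. Many of the 400 were thus called only with the day 90 libraries included. The reason was not tested.

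The later genes were read at day 6 by the size of their later difference. Of the 590, 505 had a log2 difference above 0.5 at the later ages, and 488 of these were higher in males at day 6 and 305 (60.4%) were called. At day 6 the 505 genes had a median difference of 0.83, with quartiles of 0.57 and 1.00, and their median at the later ages, where they were chosen, was 0.86. The day 6 interval lay wholly above 0 in 406 of the 505 and held 1 in 354 (70.1%). The interval lay between 0 and 1, holding neither, in 92. The 85 later genes with smaller differences had a median of 0.31 at day 6, with 76 (89.4%) in the same direction and 18 called. Of all genes tested, 44.9% had a positive day 6 difference and 2.43% were called higher in males.

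How many of the 505 genes were called at day 6 went with their read counts. Among those in the lowest group by mean level 26.6% were called, in the middle group 73.3% and in the highest 81.7%. Their median day 6 differences were 0.74, 0.86 and 0.87, and their median standard errors were 0.29, 0.13 and 0.11. For genes chosen later as higher in females, 30 had a difference below -0.5, of which 25 kept their direction at day 6 and 11 were called, with a median of -1.11. These 11 were the genes with large day 6 differences, and 9 of them passed the day 6 filter through females alone. Their direction at day 6, and in part this median, were therefore built into the selection. The other 370 genes chosen later as higher in females, many of them called only with day 90 included, had smaller later differences. Of these, 294 (79.5%) kept their direction at day 6, 6 were called, and the median was -0.09, against -0.02 over all genes tested.

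**Figure D3:**
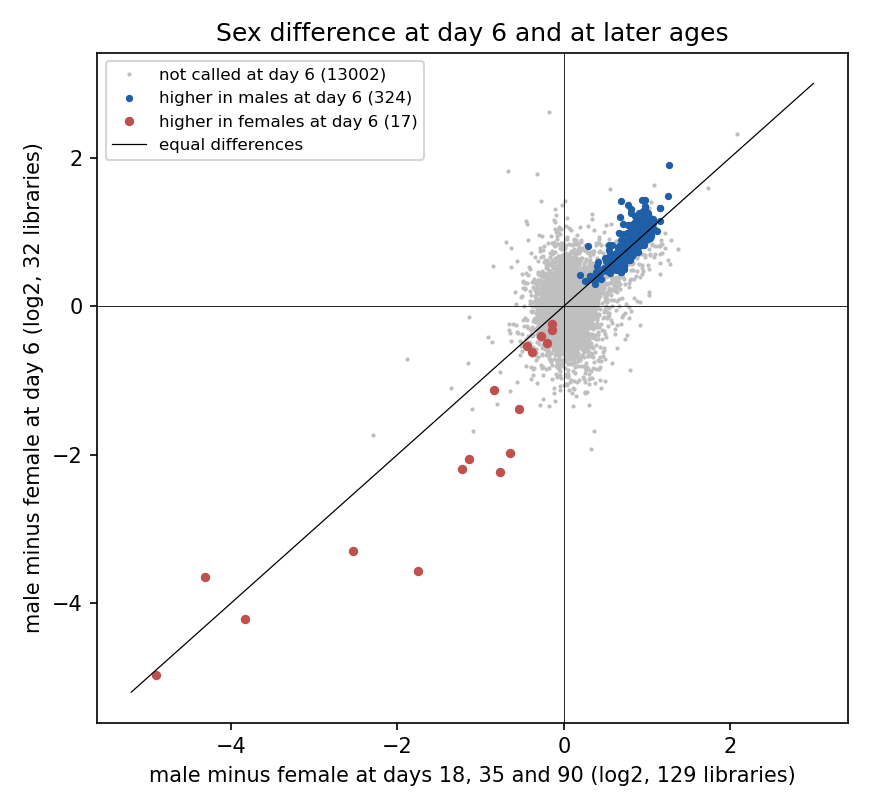
Male minus female log2 difference of each gene tested, at day 6 (vertical) and at days 18, 35 and 90 (horizontal), with genes called at day 6 in colour and a line of equal differences. The 324 genes higher in males lie near the line around 1, and all 17 genes higher in females lie below 0 on both axes.

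The 505 genes separated the nestlings one by one. For each nestling the median over these genes was taken of the log2 value minus the midpoint of the male and female means. It ranged from 0.27 to 0.53 in males, with a median of 0.39, and from -0.48 to -0.23 in females, with a median of -0.40. MeHg males spanned 0.29 to 0.45 and control males 0.27 to 0.53, while MeHg females spanned -0.48 to -0.28 and control females -0.48 to -0.23. The same median over all genes tested lay between -0.04 and 0.05 in both sexes. The 505 genes held 2.64% to 3.92% of the normalised counts in males, with a median of 3.40%, and 1.41% to 2.32% in females, with a median of 1.94%. The later libraries chose the 505 genes by their sex difference, among genes that had passed the filter in day 6 libraries. The day 6 sex difference itself did not enter that choice, although the filter can be passed through 1 sex alone.

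**Figure D4:**
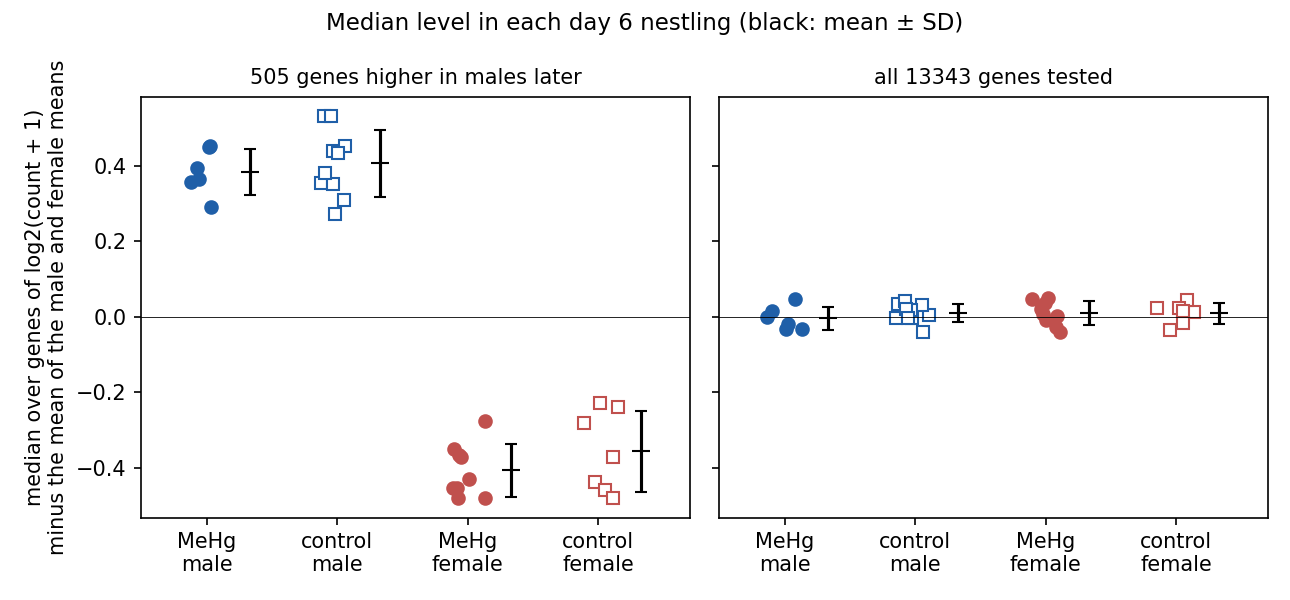
Median over genes of log2(normalised count + 1) minus the midpoint of the male and female means, 1 point per day 6 nestling, for the 505 genes chosen at later ages (left) and all 13343 genes tested (right); circles are MeHg, squares control, blue male, red female, black bars mean ± SD. Males (0.27 to 0.53) and females (-0.48 to -0.23) are apart on the left, and all lie between -0.04 and 0.05 on the right.

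The difference was present in each plate, extraction batch and title code that held both sexes. Over the 505 genes the median male minus female difference was 0.72 to 0.85 within the 6 plates, and 89.9% to 96.4% of the genes were higher in males. Over all genes the medians within these plates lay between -0.02 and 0.02. Within 7 RNA extraction batches with both sexes the median over the 505 genes was 0.73 to 0.87. Titles carry 22 codes at day 6 whose meaning is not stated, and within the 3 codes with both sexes it was 0.64 to 0.87. Several of these plates, batches and codes hold 1 library of a sex, so these values have no replicate error of their own. The 3 groupings divide the same nestlings and are not independent of one another. Plate E and batch 12 hold the same libraries, as do plate H and batch 20.

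The sex difference was also computed in MeHg nestlings and in control nestlings separately, without plate since few libraries of a treatment share one. There were 230 genes higher in males among MeHg nestlings (1.72%) and 239 among control nestlings (1.79%). Of these, 199 genes were called in both, which is 86.5% of the MeHg calls and 83.3% of the control calls, and no gene was called in opposite directions. Of the 13343 genes tested, those higher in females numbered 12 among MeHg nestlings and 9 among control nestlings, with 7 in both. Over the 505 later genes the median difference was 0.85 in MeHg nestlings and 0.78 in control nestlings. Of the same 13343 genes, 242 were higher in males in cohort 1 and 247 in cohort 2, 208 of them in both. Higher in females were 8 in cohort 1 and 12 in cohort 2, with 7 in both.

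By limma and edgeR no gene passed the test of a sex difference that depended on MeHg. The sex by treatment term called 0 genes by limma, with 462 at an unadjusted p under 0.05 and a lowest adjusted p of 0.992. Those 462 are a smaller share of the 13343 genes tested than the 0.05 that chance gives on average. edgeR called 0 and DESeq2 called 2. Over the 324 male-higher genes the term had a median of -0.01 with quartiles of -0.17 and 0.14. The median standard error of a single gene among them was 0.27. Sex by cohort called 0 genes by limma (lowest adjusted p 0.9996, and 307 with an unadjusted p under 0.05), 0 by edgeR and 1 by DESeq2. Those 307 are likewise a smaller share than chance gives on average.

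The sex difference of day 6 was then set against that of later ages in 1 fit over all ages. A single gene differed, ENSTGUG00000001760, both against the mean of days 18, 35 and 90 (0.00749% of genes tested) and against day 18 alone (0.00749%). At an unadjusted p under 0.05 there were 519 genes against the later ages and 503 against day 18. Both are smaller shares of the genes tested than the 0.05 that chance gives on average. ENSTGUG00000001760 had 1532 to 2524 normalised counts in day 6 males, with a median of 2162, and 1452 to 2228 in day 6 females, with a median of 1812. At day 18 it had 1078 to 1650 in males, with a median of 1397, and 1404 to 1725 in females, with a median of 1574. The sexes overlapped at both ages. Males averaged 2119 ± 260 at day 6 (SD, n = 16) and 1376 ± 157.1 at day 18 (SD, n = 26), and females 1819 ± 211 (SD, n = 16) and 1582 ± 105.2 (SD, n = 20).

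The male minus female log2 difference of ENSTGUG00000001760 was 0.22 ± 0.07 on day 6, -0.22 ± 0.05 on day 18, -0.06 ± 0.06 on day 35 and -0.24 ± 0.06 on day 90 (SE). Day 6 minus the later ages was 0.39 ± 0.07 (SE; limma adjusted p = 0.00577), and day 6 minus day 18 was 0.44 ± 0.08 (SE; limma adjusted p = 0.00847). In day 6 libraries alone its difference of 0.25 ± 0.09 was not called (SE; limma adjusted p = 0.271). In the later libraries alone it was called higher in females, at -0.18 ± 0.03 (SE; limma adjusted p = 8.57e-06). edgeR called 3 genes in each contrast. Without the libraries of day 90 the contrast with the remaining later ages called 0 genes (lowest limma adjusted p = 0.128), with a difference of 0.35 for this gene, while that with day 18 still called 1.

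The genes called at day 6 were followed to the later ages. In the same fit the 324 male-higher genes had median differences of 0.92 on day 6, 0.93 on day 18, 0.85 on day 35 and 0.82 on day 90. They were chosen at day 6, so their day 6 values lean high. ENSTGUG00000026129 differed by 0.99 ± 0.06, 1.01 ± 0.05, 0.96 ± 0.05 and 0.85 ± 0.05 at these ages (SE). ENSTGUG00000001888 differed by 1.24 ± 0.36, 1.14 ± 0.29, 1.18 ± 0.31 and 1.42 ± 0.30 (SE). Among genes higher in females, ENSTGUG00000024281 differed by -5.04 ± 0.33, -4.88 ± 0.27, -5.06 ± 0.29 and -4.83 ± 0.28 (SE). ENSTGUG00000026388 differed by -3.73 ± 0.37, -4.14 ± 0.30, -4.20 ± 0.32 and -4.60 ± 0.31 (SE). None of the 4 genes passed the test of day 6 against the later ages.

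Of the 11 genes with large differences in favour of females, 10 had a larger difference at day 6 than at the later ages. The later values of the 11 ran from -4.90 to -0.54, and those of the other 6 from -0.45 to -0.15. All 17 were chosen for their day 6 difference, and 9 of the 11 passed the day 6 filter through females alone, so their day 6 values lean large and this count supports nothing by itself. None of the 11 passed the test of that change, and the lowest adjusted p by limma was 0.463.

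**Figure D5:**
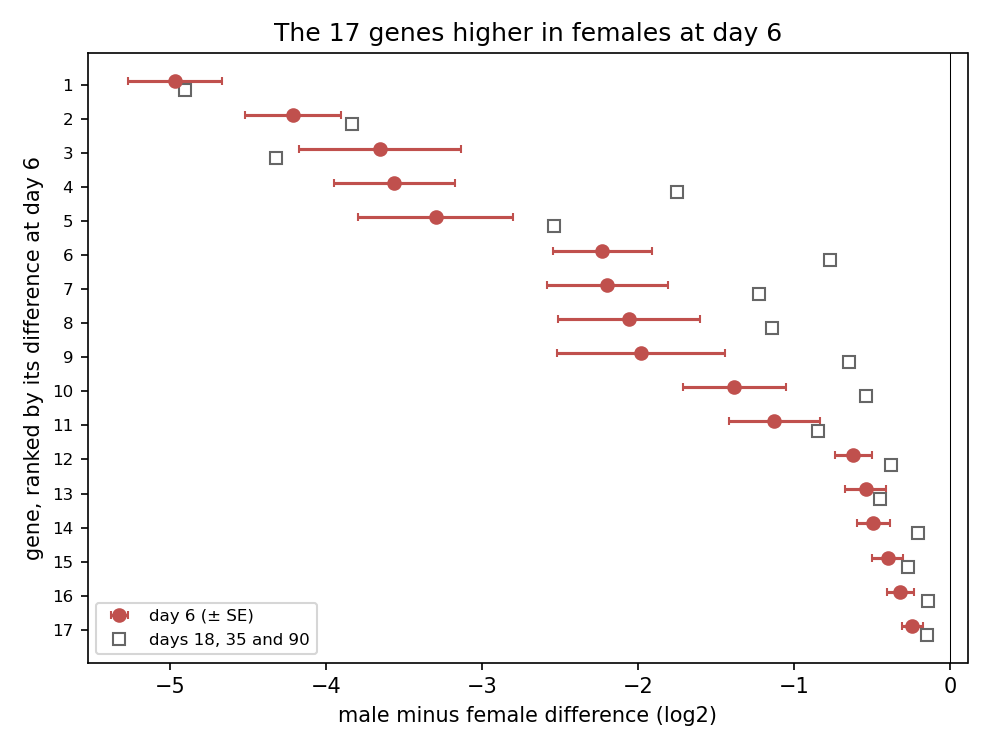
Male minus female log2 difference of the 17 genes higher in females at day 6, ranked by size, at day 6 (red circles ± SE) and at days 18, 35 and 90 (grey squares). All 17 lie below 0 at both, from -4.97 to -0.24 at day 6.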

How the data were processed

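Marrow RNA was isolated with RNAzol, poly(A) RNA was selected on oligo(dT) beads and libraries followed a NEBNext protocol, as the labels' protocols state. Tools credited to the submitters' processing notes are R 4.0.2, DESeq2 1.30.1, Subread and featureCounts. No genome build, gene annotation or strand setting is named in the sources used here. Overlapping or antisense genes may therefore share reads, as may near-identical copies. The authors deposited a normalised signal, in which the read counts of a library share 1 divisor. Taken as multiples of each library's lowest value above 0, 100% of values were whole to within a relative deviation of 9.44e-15, which gave the reads back. The lowest chi-square per gene between 2 day 6 libraries of a group was 12.3, so no pair agreed within counting noise.

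Sex, treatment, age, cohort and plate came from the labels. Of 169 labelled libraries 161 were analysed. The table has 17292 genes, and 0 identifiers could be paired with a symbol, so the gene and marker lists drawn up were not used. Genes that reached a value of 10 in 6 or more day 6 libraries were tested on log2(value + 1) with limma 3.58.1 (R 4.3.3; trend, robust variances; male, treatment, cohort and plate; 19 residual degrees of freedom). Adjusted p-values are Benjamini-Hochberg over all genes tested. edgeR 4.0.16, DESeq2 1.42.0 and voom were run on the recovered reads, where edgeR called 319 genes higher in males and 17 higher in females. The fit was also run on simulated data. These held no plate, cohort or treatment effects and no changes in genes with low means. The outcome is not given here and is not used as support. Named genes are, each way, the called gene with the largest difference and the one with the smallest p among those with a mean of at least 50 in the higher sex, and for contrasts between ages the called gene with the largest change. The comparison, lists and rules were chosen with earlier results of these data known.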

Additional observations from a re-analysis of the deposited data

Results flagged for a closer look

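The sex difference of ENSTGUG00000001760 differed between ages by limma in the fit over all ages. Day 6 minus the later ages was 0.39 on the log2 scale (limma adjusted p = 0.00577). Day 6 minus day 18 was 0.44 (limma adjusted p = 0.00847). These 2 contrasts share the day 6 and day 18 libraries. Without day 90 the contrast with later ages was not called (limma adjusted p = 0.128). In day 6 libraries alone the sex difference of this gene was not called either (limma adjusted p = 0.271). It was called higher in females in the later libraries alone (limma adjusted p = 8.57e-06). Among 28 groups of 4 to 10 nestlings examined (4 genes, the median over the 505 genes, reads and RIN), 4 had a sample far from the others. The limit used gives about 1 in 20 by chance for normally distributed values. The gene counts were not taken to logs here, so that rate may not hold for them. MeHg male replicate 7 had 520 normalised counts of ENSTGUG00000001888. MeHg female replicate 6 had 103.4 normalised counts of ENSTGUG00000024281. MeHg male replicate 1 had 13.1 normalised counts of ENSTGUG00000026388. Control female replicate 5 had a RIN of 6.2.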

How the results depend on the processing

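The count of genes higher in males stayed within 1.5 times its value of 324 in all 51 alternatives run (230 to 422, and 294 to 330 with each library left out in turn), and the median of 0.83 over later-age genes stayed between 0.78 and 0.86. The count of genes higher in females, 17, moved with the settings. It was 35 without the filter, 6 with a mean of at least 50, 27 with DESeq2 and with voom, 29 without plate, 8 in libraries with a RIN, 6 with RIN added, 58 with all ages in 1 fit, 9 in controls alone and 8 in cohort 1 alone. With each library left out it was 11 to 19, at 11 without control female replicate 3 or MeHg male replicate 3, which share a plate. DESeq2 gave 2 genes for sex by treatment and 1 for sex by cohort. For day 6 against later ages edgeR gave 3 genes, the fit without plate 2 and that without day 90 0. Leaving out each day 6 library gave 1 to 3, with 2 or 3 without control male replicates 1, 3, 4 or 6, control female replicates 2, 3, 4 or 6, MeHg male replicate 1, or MeHg female replicates 3 or 6. For day 6 against day 18 edgeR gave 3. The cause of these changes was not tested. ENSTGUG00000001888 lost its call in 24 of 50 alternatives. No direction reversed. Extraction batch in place of plate gave 301 and 14 genes, and title code as a random effect 325 and 17. No paired analysis was possible because the labels give no replicate numbers, and those used here follow accession order and pair no samples. Low read counts limit the precision for 11 of the 17 genes higher in females.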
